A study of Mus musculus with 14 samples.

Results

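A set of 8 genes of extracellular proteolysis and blood clotting was followed through the left ventricle of mice with and without pressure overload. They are Plat, Plau, Plaur, Serpine2, Serpina3n, F2r, F3 and Thbd, chosen by name as members of the plasminogen system and of coagulation, with earlier results of these data known. All 8 were found among the 49315 genes of the count table, and all 8 were among the 15292 genes with enough reads for a test.

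RNA was taken from left ventricles of male mice 5 weeks after surgery, and the animals were 10 to 12 weeks old when operated. Transverse aortic constriction (TAC) narrows the aorta around a needle, here of 27 gauge, so that the left ventricle pumps against a higher pressure, while Sham animals had the operation without the constriction. WT mice carry the unmodified pacemaker channel gene Hcn4. HCN4F mice carry a knock-in in their own Hcn4 gene, in exon 4, that exchanges a tyrosine of the channel for phenylalanine, and zygosity was not given in the sources used here. The libraries comprised 4 WT-Sham, 4 HCN4F-Sham, 2 WT-TAC (replicates 2 and 3) and 4 HCN4F-TAC hearts. The study describes 4 animals per group, of which 2 in the WT-TAC group were used here. The exchanged residue cannot be read from gene counts, so the genotype labels were not checked.

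The plasminogen system cuts plasminogen to plasmin, a protease that dissolves fibrin and helps to degrade matrix. Plat (tissue-type plasminogen activator) and Plau (urokinase) perform the cut, Plaur (the urokinase receptor) holds urokinase at the cell surface, and serpins such as Serpine2 (protease nexin-1) block the activators. Coagulation begins when F3 (tissue factor) meets circulating factor VII and ends with thrombin. Thrombin cleaves fibrinogen and also signals to cells by cleaving F2r (protease-activated receptor 1), while Thbd (thrombomodulin) binds thrombin on endothelium and turns it towards activation of protein C. Serpina3n is a secreted serpin of the acute phase response, the mouse counterpart of human alpha-1-antichymotrypsin.

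Depth was 22309914 to 35210939 counts per library (median 27676182), so that a gene with 0 counts could still lie at up to 0.0858 to 0.137 CPM, the reads of a gene per 1000000 reads of the library (counting error only). Heart muscle markers were high in every library, with a summed level of 6 cardiomyocyte genes between 47900 and 67000 CPM. Atrial markers summed to 3.46 to 7.6 CPM in Sham hearts and to 4.89 and 5.09 CPM in WT-TAC hearts. In HCN4F-TAC hearts they reached 9.49, 55.2, 6.32 and 18.4 CPM in replicates 1 to 4. HCN4F-TAC replicate 2 also had the highest erythroid (364 CPM) and platelet (12.8 CPM) marker sums of all libraries. It was the highest of its group for Serpine2, F2r and Thbd. Across the members 2 libraries stood out. HCN4F-TAC replicate 3 was the lowest of its group for 6 of the 8 genes and the highest for the other two, Plaur and F3. HCN4F-Sham replicate 1 was the lowest of its group for 7 of the 8, and it also had the lowest summed endothelial level of all libraries (667 CPM against 779 to 1250 CPM). The TAC changes of the members in HCN4F hearts are given with and without these libraries, while the values of genes that are not members include them.

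F2r and Plat were the members that passed for TAC against Sham within a genotype, both higher in HCN4F hearts, and the test of a difference from the WT response was not passed by either (interaction, adjusted p = 0.494 and 0.622). Plaur passed as well, with F2r and Plat, when TAC was averaged over genotype. Serpina3n was the member with the largest genotype difference and was higher in all 8 HCN4F hearts than in any of the 6 WT hearts. The margin was narrow (15.65 against 15.02 CPM), and the share of all genes that separate the genotypes likewise was not counted. Serpina3n, Plau, Plaur, Serpine2, F3 and Thbd passed the test in none of the 4 comparisons between groups as fitted here. A gene passed where its adjusted p (edgeR quasi-likelihood test, adjusted over all tested genes) was under 0.05, and was called where its log2 fold change was also above 1 or below -1. No member was called in any of the 4 comparisons.

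**Figure D1:**
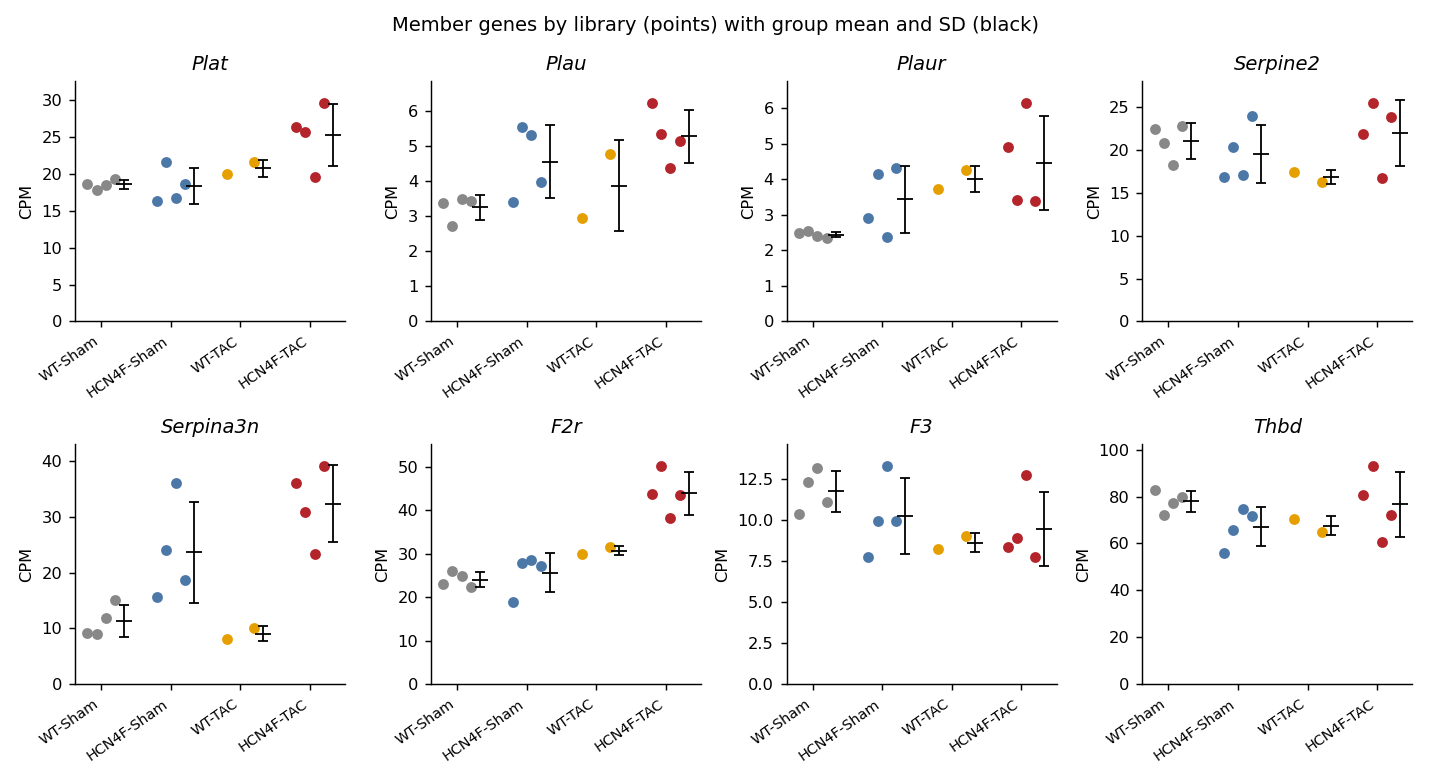
Each panel plots 1 gene, with CPM per library as points for the 4 groups and the group mean with its SD in black (n = 4, 4, 2 and 4 from left to right). F2r was highest in the 4 HCN4F-TAC hearts (38.2 to 50.3 CPM), and Serpina3n was higher in both HCN4F groups (15.7 to 39.2 CPM) than in both WT groups (8.13 to 15.0 CPM).

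In WT hearts 0 of the 8 members passed the comparison of TAC with Sham and 0 were called, against 4.54% and 0.706% of all tested genes. At an unadjusted p under 0.05 there were 3, Plaur, F2r and F3, against 22% of all tested genes. In HCN4F hearts 2 of 8 passed, both higher after TAC, against 13.6% of all tested genes, and 0 were called, against 2.75%. These were also the 2 members at an unadjusted p under 0.05, against 28.3% of all genes. The genotype comparison in Sham hearts gave 0 of 8 passing (background 0.471%) and 0 called (0.209%), with Plau, Plaur and Serpina3n at an unadjusted p under 0.05 (15.2% of all genes). In TAC hearts the genotype comparison also gave 0 passing (0.111%) and 0 called (0.0719%), with Serpine2, Serpina3n and F2r at an unadjusted p under 0.05 (12.5% of all genes). The genotype by surgery interaction was passed by 0 members and by 0% of all genes in edgeR, with 3 members and 1418 genes at an unadjusted p under 0.05. DESeq2 on all groups passed 0 members and 33 genes (0.242% of those with an adjusted p) for the interaction. These counts over all genes changed when single libraries were left out. Of the tested genes 694 passed for TAC in WT hearts, and 11 did without WT-TAC replicate 3, 176 without WT-TAC replicate 2 and 160 without WT-Sham replicate 4. For TAC in HCN4F hearts 2082 passed, and 1329 did without HCN4F-TAC replicate 2 and 2394 without HCN4F-TAC replicate 3. Between Sham genotypes 72 passed, and 567 without HCN4F-Sham replicate 1. Between TAC genotypes 17 passed, and 454 without HCN4F-TAC replicate 3, when 78 also passed the interaction. The 2 TAC comparisons use separate Sham and TAC hearts, but each TAC comparison shares its libraries with both genotype comparisons. Below, libraries of 2 groups are said not to overlap for single genes, and the share of all genes that separate likewise was not counted. Separation is reached more easily by 2 libraries against 4 than by 4 against 4.

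The median log2 fold change of the 8 members was -0.02 for TAC in WT hearts and 0.30 for TAC in HCN4F hearts, with 4 and 7 of 8 fitted above 0. For HCN4F against WT it was 0.04 in Sham hearts and 0.33 in TAC hearts, with 4 and 8 of 8 above 0. Without HCN4F-TAC replicate 3, Plaur and F3 turned to -0.047 each in the TAC hearts. The members share their libraries and were chosen with earlier results known, so these counts are descriptions and not a test. Over all tested genes the medians of the 4 comparisons lay between -0.02 and 0.00, and between 46.5% and 51.1% of genes were above 0.

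**Figure D2:**
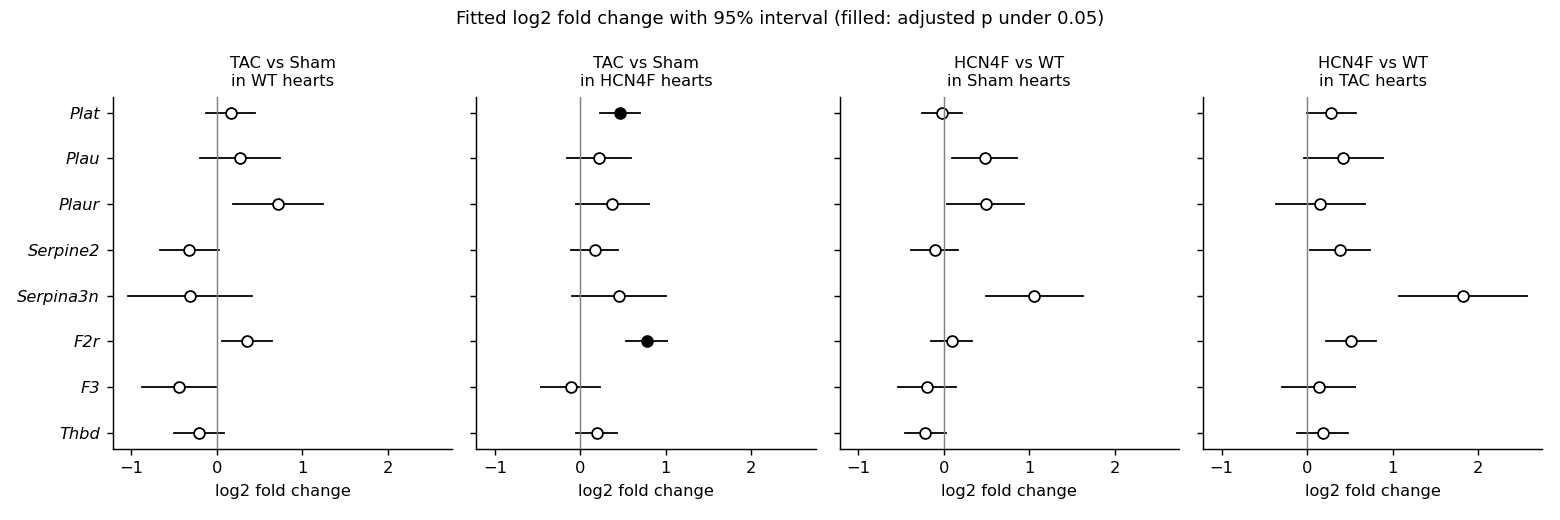
Points show the fitted log2 fold change of each member in the 4 comparisons, lines show the 95% interval, and filled points passed the test at an adjusted p under 0.05. Only Plat and F2r with TAC in HCN4F hearts are filled, while the intervals of Serpina3n in both genotype comparisons lie above 0 without passing after adjustment.

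Plat lies on chromosome 8 (GRCm38, 22757727 to 22782844, plus strand) and encodes the activator that works chiefly on fibrin. In Sham hearts it measured 18.6, 17.9, 18.5 and 19.3 CPM in WT replicates 1 to 4 and 16.3, 21.6, 16.7 and 18.7 CPM in HCN4F replicates 1 to 4. After TAC it measured 19.9 and 21.6 CPM in the WT hearts and 26.3, 25.6, 19.5 and 29.6 CPM in the HCN4F hearts. In all, 3 of the 4 HCN4F-TAC libraries were above every HCN4F-Sham library, and replicate 3 fell among them. Plat rose from 18.3 ± 2.44 to 25.3 ± 4.20 CPM (SD, n = 4 each), a log2 fold change of 0.46 (SE 0.11, 95% interval 0.23 to 0.70, adjusted p = 0.0109). Without HCN4F-TAC replicate 3 the change was 0.57 (adjusted p = 0.000737), and without HCN4F-Sham replicate 1 it was 0.41 (adjusted p = 0.0307). Without HCN4F-TAC replicate 2 it was 0.45 (adjusted p = 0.0351). In edgeR on the 2 compared groups alone the same change gave an adjusted p of 0.0515. Both WT-TAC hearts were above all 4 WT-Sham hearts, but the change of 0.16 (SE 0.14) had an adjusted p of 0.514. The difference between these TAC responses was 0.30 (95% interval -0.07 to 0.68, adjusted p = 0.622).

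Plau (chromosome 14, 20836660 to 20843385, plus strand) encodes urokinase, the activator that works mostly at cell surfaces. Its levels were low, at 3.36, 2.72, 3.48 and 3.43 CPM in WT-Sham hearts and 3.39, 5.52, 5.31 and 3.95 CPM in HCN4F-Sham hearts. WT-TAC hearts had 2.96 and 4.78 CPM and HCN4F-TAC hearts 6.22, 5.33, 4.38 and 5.12 CPM. The lower WT-TAC value lay within the WT-Sham range and the higher above it, and HCN4F libraries tended to the upper end without separating fully from WT. The genotype difference was 0.48 (SE 0.18, adjusted p = 0.227) in Sham and 0.42 (SE 0.22, adjusted p = 0.439) in TAC hearts. The TAC changes were 0.27 (SE 0.22, adjusted p = 0.502) in WT and 0.22 (SE 0.18, adjusted p = 0.448) in HCN4F hearts, the latter 0.30 without HCN4F-TAC replicate 3 and 0.10 without HCN4F-Sham replicate 1. Without WT-TAC replicate 3 the WT value turned to -0.13 and the genotype difference after TAC became 0.83, and without WT-TAC replicate 2 that difference was 0.14.

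Plaur (chromosome 7, 24462484 to 24475968, plus strand), the receptor for urokinase, was the lowest member per kilobase. WT-Sham hearts had 2.47, 2.54, 2.41 and 2.35 CPM, a spread of 0.0812 CPM (SD), and WT-TAC hearts had 3.74 and 4.26 CPM. HCN4F-Sham hearts had 2.90, 4.15, 2.38 and 4.31 CPM and HCN4F-TAC hearts 4.89, 3.42, 6.14 and 3.37 CPM. Both WT-TAC values were above all WT-Sham values, and the HCN4F groups overlapped. TAC gave 0.72 in WT (SE 0.25, 95% interval 0.19 to 1.25, adjusted p = 0.105) and 0.37 in HCN4F hearts (SE 0.20, adjusted p = 0.244). The HCN4F value was 0.18 without HCN4F-TAC replicate 3, the library with the highest level, and 0.30 without HCN4F-Sham replicate 1. The WT change passed without the filter on low counts (adjusted p = 0.0381) and in fits of the 2 WT groups alone, at an adjusted p of 0.0113 in edgeR and 0.0152 in DESeq2. Those fits estimate the spread from 6 libraries, and they passed 3 of 8 members (Plaur, F2r and F3) against 13.6% of tested genes in edgeR and 14.1% in DESeq2.

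Serpine2 (chromosome 1, 79794197 to 79861180, minus strand) encodes protease nexin-1, which inhibits thrombin and both plasminogen activators. WT-Sham hearts had 22.5, 20.8, 18.2 and 22.8 CPM and HCN4F-Sham hearts 16.9, 20.4, 17.0 and 24.0 CPM. After TAC the values were 17.4 and 16.3 CPM in WT and 21.8, 25.5, 16.7 and 23.9 CPM in HCN4F hearts. Both WT-TAC hearts were below all 4 WT-Sham hearts, and 3 of 4 HCN4F-TAC hearts were above both WT-TAC hearts. None of these differences passed: TAC in WT gave -0.33 (SE 0.16, adjusted p = 0.256), TAC in HCN4F gave 0.17 (SE 0.13, adjusted p = 0.434), and HCN4F against WT after TAC gave 0.38 (SE 0.16, 95% interval 0.04 to 0.73, adjusted p = 0.348). Without HCN4F-TAC replicate 3 the last 2 values were 0.28 and 0.50 (adjusted p = 0.124 and 0.0755), and without HCN4F-Sham replicate 1 the TAC change in HCN4F hearts was 0.10.

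Serpina3n (chromosome 12, 104406729 to 104414329, plus strand) had the widest range of the members as a ratio of the highest to the lowest library. WT-Sham hearts had 9.23, 9.06, 11.96 and 15.0 CPM and WT-TAC hearts 8.13 and 10.04 CPM. HCN4F-Sham hearts had 15.7, 24.1, 36.2 and 18.7 CPM and HCN4F-TAC hearts 36.0, 30.8, 23.4 and 39.2 CPM. The lowest HCN4F heart was just above the highest WT heart (15.65 against 15.02 CPM), and within either surgery the genotypes did not overlap. In Sham hearts the mean was 11.3 ± 2.80 CPM in WT and 23.7 ± 9.04 CPM in HCN4F (SD, n = 4 each), a log2 fold change of 1.06 (SE 0.26, 95% interval 0.49 to 1.63, adjusted p = 0.0973). In TAC hearts it was 9.09 ± 1.35 CPM (n = 2) and 32.4 ± 6.89 CPM (n = 4), a log2 fold change of 1.83 (SE 0.34, 95% interval 1.08 to 2.57, adjusted p = 0.0834).

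These genotype differences of Serpina3n missed the threshold in the edgeR fit and passed it in DESeq2, the tool the study names. DESeq2 on all groups gave 1.06 (adjusted p = 0.0154) in Sham and 1.82 (adjusted p = 0.00012) in TAC hearts, where 2.26% and 1.59% of genes with an adjusted p passed by that tool. Within edgeR the Sham difference passed without HCN4F-Sham replicate 1 (1.21, adjusted p = 0.0248; 567 of 15250 genes passed), and the TAC difference passed without HCN4F-TAC replicate 3 (1.95, adjusted p = 0.0129; 454 of 15300 genes) or without HCN4F-Sham replicate 3 (1.82, adjusted p = 0.0168; 20 of 15300 genes). Without WT-TAC replicate 2 the TAC difference was 1.69 with an adjusted p of 0.54. A comparison of the genotypes averaged over surgery, added after the data had been seen, gave 1.44 (SE 0.22, 95% interval 0.97 to 1.91, adjusted p = 0.0114), or 2.72-fold. By that comparison 1 of 8 members passed, against 1.26% of all genes, and without WT-TAC replicate 2 the adjusted p of Serpina3n became 0.114. TAC itself gave -0.31 (SE 0.33, adjusted p = 0.623) in WT and 0.45 (SE 0.25, adjusted p = 0.266) in HCN4F hearts, where it was 0.30 (adjusted p = 0.454) without HCN4F-Sham replicate 1, became 0.58 once HCN4F-TAC replicate 3 was left out, and passed without HCN4F-Sham replicate 3 (0.73, adjusted p = 0.0399). The WT value lay between -0.48 and -0.14 over the alternatives, and the interaction was 0.77 (95% interval -0.15 to 1.68, adjusted p = 0.608).

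Serpina3n belongs to a cluster of near relatives on chromosome 12, which matters for the assignment of reads. Of its 2015 stretches of 50 bases, 6.9% also occurred in transcripts of 7 other genes, most often Serpina3e-ps (2.68%), so that part of its count is uncertain. Of 10 other clade A3 serpins listed, 4 had enough reads for a test and 0 passed in any of the 4 comparisons, and the group means of Serpina3c and Serpina3g stayed at or below 0.514 and 0.418 CPM. Serpina3m, named after its values were seen, was lower still and had 0.0326 to 0.109 CPM in WT-Sham, 0.0376 to 0.470 CPM in HCN4F-Sham, 0 and 0.0572 CPM in WT-TAC and 0.0987 to 0.414 CPM in HCN4F-TAC hearts. Its genotypes overlapped in Sham hearts and not in TAC hearts, many of these values were at or under the floor of 3 counts, and the adjusted p was 0.279 and 0.286. How far reads are shared between Serpina3m and Serpina3n in these counts was not tested. Serpine2 shared 0.303% of such stretches and the other 6 members none.

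**Figure D3:**
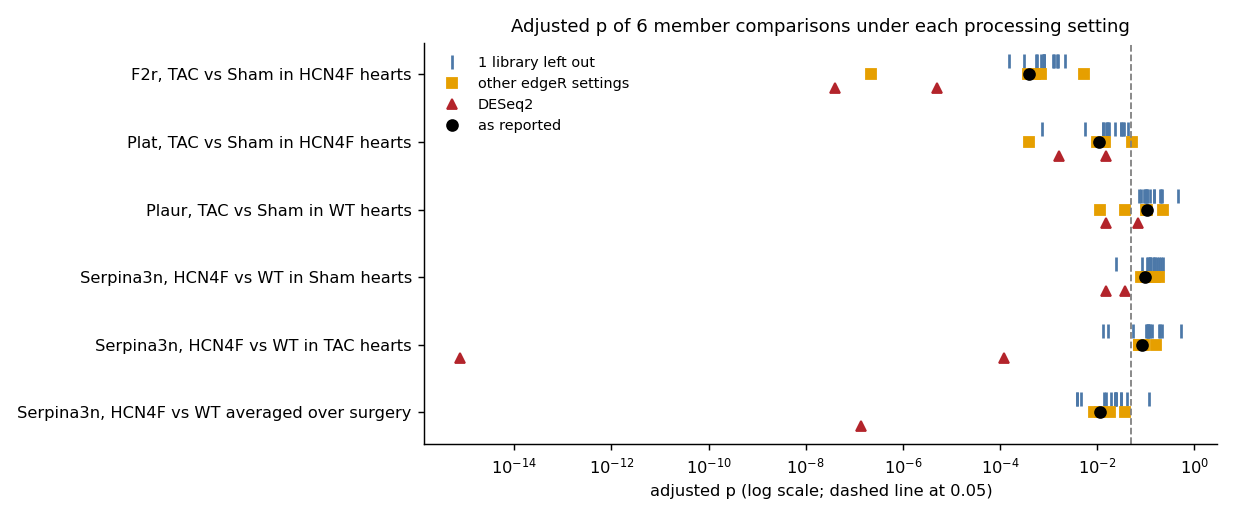
Each row is 1 member in 1 comparison and the horizontal axis is its adjusted p on a log scale, as reported (black), with 1 library left out (blue), with other edgeR settings (orange) and in DESeq2 (red). F2r with TAC in HCN4F hearts stays left of 0.05 throughout (3.99e-08 to 0.00531), whereas Serpina3n in the separate genotype comparisons crosses the line with the tool and with the library left out.

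F2r (chromosome 13, 95601803 to 95618487, minus strand), the main thrombin receptor of fibroblasts and endothelium, had the clearest TAC response of the 8. WT-Sham hearts had 23.1, 26.0, 24.9 and 22.3 CPM and HCN4F-Sham hearts 18.9, 27.9, 28.7 and 27.2 CPM. WT-TAC hearts had 30.0 and 31.5 CPM and HCN4F-TAC hearts 43.8, 50.3, 38.2 and 43.4 CPM. The 4 HCN4F-TAC hearts were above every other library, and both WT-TAC hearts were above all 8 Sham hearts. With TAC, F2r rose in HCN4F hearts from 25.7 ± 4.57 to 43.9 ± 4.95 CPM (SD, n = 4 each), a log2 fold change of 0.78 (SE 0.11, 95% interval 0.53 to 1.02, 1.71-fold, adjusted p = 0.00039). The change was 0.65 without HCN4F-Sham replicate 1 (adjusted p = 0.000308) and 0.84 without HCN4F-TAC replicate 3 (adjusted p = 0.000152). Without HCN4F-TAC replicate 2 it was 0.70 (adjusted p = 0.00214).

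In WT hearts the F2r change was 0.35 (SE 0.14, 95% interval 0.06 to 0.65, adjusted p = 0.143). It passed without HCN4F-Sham replicate 1 (adjusted p = 0.0447) and in fits of the 2 WT groups alone (adjusted p = 0.0162 in edgeR and 0.00852 in DESeq2). HCN4F-TAC against WT-TAC hearts gave 0.51 (SE 0.14, 95% interval 0.22 to 0.81, adjusted p = 0.156), which passed without HCN4F-TAC replicate 3 (0.58, adjusted p = 0.0369), when 454 of 15300 genes did, and in DESeq2 on those groups alone (0.51, adjusted p = 0.0225), where 1.13% of genes passed. In Sham hearts the genotypes differed by 0.09 (SE 0.11, adjusted p = 0.741). The interaction, which asks directly whether the TAC response differed between the genotypes, was 0.42 (95% interval 0.04 to 0.80) with an adjusted p of 0.494.

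A comparison of TAC with Sham averaged over genotype, added after the data had been seen, was passed by 3 of 8 members against 21.4% of all tested genes. F2r gave 0.56 (SE 0.09, adjusted p = 0.000441), Plaur 0.55 (SE 0.16, adjusted p = 0.0244) and Plat 0.31 (SE 0.09, adjusted p = 0.018). With the replicate number as a block, Plaur gave 0.53 and did not pass (adjusted p = 0.0709). Without WT-TAC replicate 3 the adjusted p was 0.123 for Plaur and 0.099 for Plat.

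F3 (chromosome 3, 121723537 to 121735048, plus strand), tissue factor, is the cell surface protein that starts coagulation outside vessels. WT-Sham hearts had 10.4, 12.3, 13.2 and 11.1 CPM and WT-TAC hearts 8.21 and 9.01 CPM. HCN4F-Sham hearts had 7.71, 9.95, 13.3 and 9.96 CPM and HCN4F-TAC hearts 8.37, 8.89, 12.7 and 7.77 CPM. Both WT-TAC hearts were below all WT-Sham hearts, and the HCN4F groups overlapped fully. TAC gave -0.44 in WT (SE 0.20, 95% interval -0.87 to -0.01, adjusted p = 0.211) and -0.11 in HCN4F hearts (SE 0.16, adjusted p = 0.694). The HCN4F value was -0.29 without HCN4F-TAC replicate 3 and -0.23 without HCN4F-Sham replicate 1. The WT value passed in fits of the 2 WT groups alone, with an adjusted p of 0.0363 in edgeR and 0.046 in DESeq2. The genotypes differed by -0.20 (SE 0.16) in Sham and 0.13 (SE 0.20) in TAC hearts, with adjusted p of 0.595 and 0.842.

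Thbd (chromosome 2, 148404466 to 148408188, minus strand) is a gene of 1 exon and encodes the thrombin cofactor of the endothelial surface. WT-Sham hearts had 83.0, 72.2, 77.2 and 79.7 CPM and WT-TAC hearts 70.4 and 64.9 CPM. HCN4F-Sham hearts had 56.1, 65.8, 74.8 and 71.8 CPM and HCN4F-TAC hearts 80.6, 93.2, 60.6 and 72.2 CPM. Both WT-TAC hearts were below the WT-Sham hearts. The HCN4F-TAC hearts ran from 60.6 to 93.2 CPM, against 56.1 to 83.0 CPM in the other groups. TAC gave -0.21 in WT (SE 0.14, adjusted p = 0.4) and 0.19 in HCN4F hearts (SE 0.11, adjusted p = 0.287), and HCN4F against WT gave -0.22 in Sham (SE 0.11, adjusted p = 0.374) and 0.18 in TAC hearts (SE 0.14, adjusted p = 0.638). Without HCN4F-TAC replicate 3 the TAC change in HCN4F hearts was 0.29 (adjusted p = 0.0673) and the genotype difference after TAC 0.28 (adjusted p = 0.259), and without HCN4F-Sham replicate 1 the TAC change was 0.11. Of 6 endothelial markers 0 passed in any of the 4 comparisons. Their sums were 820 to 962 CPM in WT-Sham, 667 to 1250 CPM in HCN4F-Sham, 779 and 1000 CPM in WT-TAC and 887 to 965 CPM in HCN4F-TAC hearts.

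F2r, Plat and Serpina3n are also made by cells other than muscle, and some fibroblast markers rose with TAC in HCN4F hearts. In bulk tissue, more cells of a type and more RNA per cell cannot be told apart. The summed level of 6 fibroblast markers was 599 to 613 CPM in WT-Sham, 584 to 747 CPM in HCN4F-Sham, 553 and 651 CPM in WT-TAC and 714 to 1150 CPM in HCN4F-TAC hearts. The sum is weighted towards Col1a1, Col1a2 and Dcn, with means of 341.7, 282.4 and 279.0 CPM in HCN4F-TAC hearts, where the mean sum was 987 CPM. With TAC in HCN4F hearts 3 of the 6 passed, Col1a1 (1.14), Col1a2 (0.90) and Lum (0.51), while Pdgfra (0.10), Tcf21 (0.06) and Dcn (0.10) did not (log2 fold changes). Of all tested genes 13.6% passed in that comparison. For TAC averaged over genotype 3 of the 6 passed, all higher, against 21.4% of all tested genes. Of 6 cardiomyocyte markers 4 passed lower and 1 (Actc1) higher with TAC in HCN4F hearts, and of 3 tested atrial markers 1 passed higher (Dkk3, 2.09, adjusted p = 0.0099). The cardiomyocyte sum was 56800 to 60300 CPM in HCN4F-Sham and 47900 to 54100 CPM in HCN4F-TAC hearts. In either genotype comparison 0 of the 6 fibroblast markers passed. In the genotype comparison averaged over surgery, which Serpina3n passed, 6 of the 6 were higher and 1 passed, against 1.26% of all tested genes. The part of these markers in the rise of F2r and Plat, and in the genotype difference of Serpina3n, was not tested. Macrophage markers summed to 119 to 142 CPM in WT-Sham and 123 to 160 CPM in HCN4F-Sham hearts, and to 114 and 123 CPM in WT-TAC and 115 to 174 CPM in HCN4F-TAC hearts, with 0 of 6 passing in either genotype comparison.

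**Figure D4:**
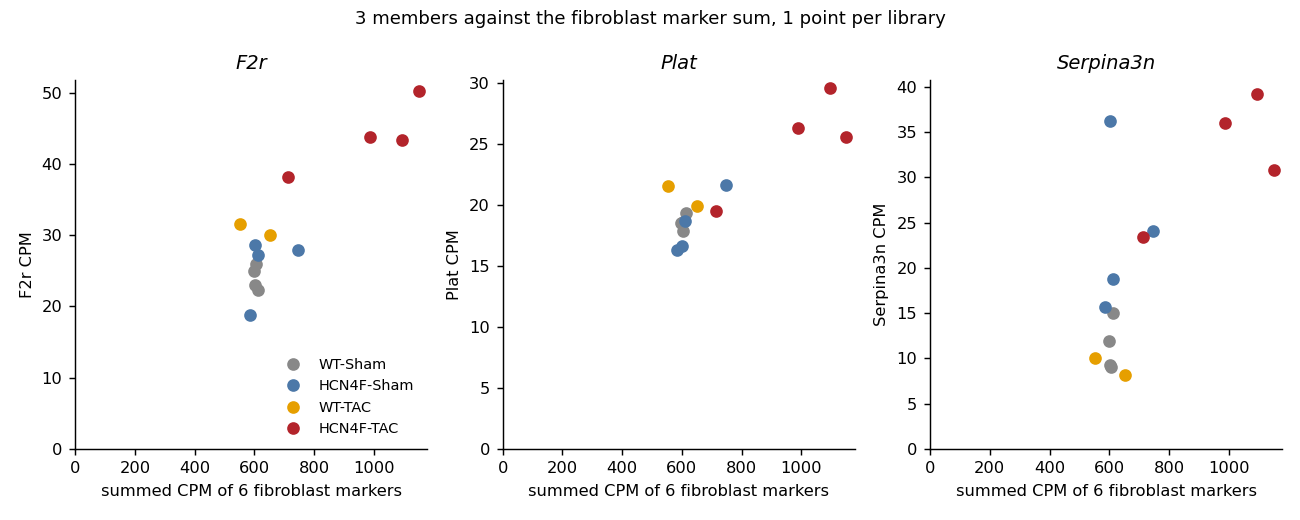
Each point is 1 library, with the summed CPM of 6 fibroblast markers on the horizontal axis and the CPM of F2r, Plat or Serpina3n on the vertical axis, coloured by group. The HCN4F-TAC replicates 1, 2 and 4 lie to the upper right in the F2r and Plat panels, and HCN4F-TAC replicate 3 has the lowest marker sum of its group (714 CPM). In the Serpina3n panel all HCN4F libraries lie above all WT libraries. Col1a1, Col1a2 and Dcn make up most of the marker sum, and its part in the 3 genes was not tested.

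Platelets and neutrophils carry several of these proteins, and their markers were low. The platelet marker Pf4 was above the floor in every library, at 3.80 to 9.81 CPM. The summed level of 6 platelet genes was 5.46 to 12.8 CPM over all libraries, with 0 of the 4 tested ones passing in any of the 4 comparisons. Neutrophil genes summed to 0.573 to 1.31 CPM in WT-Sham, 1.96 to 2.97 CPM in HCN4F-Sham, 2.43 and 3.74 CPM in WT-TAC and 1.82 to 5.79 CPM in HCN4F-TAC hearts, and the defining marker Ly6g was at or under the floor of 3 counts. For TAC in WT hearts 2 of the 5 tested neutrophil genes passed, both higher. For TAC averaged over genotype, which Plaur passed, 4 of the 5 passed, all higher, against 21.4% of all tested genes. Mesothelial genes summed to 4.73 to 15.4 CPM and haemoglobin and other erythroid genes to 70.8 to 364 CPM, with 0 of 3 and 0 of 5 tested genes passing in the 4 comparisons. Smooth muscle and pericyte genes (653 to 1010 CPM) gave 0 passing in the 4 comparisons as well, and 1 passing higher for TAC averaged over genotype. The part of these cells in the member values was not tested.

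Upstream sequence was compared for F2r and Plaur, which passed for TAC averaged over genotype, for F3, which shares their motif but did not pass, and for Serpina3n, whose genotype difference was the largest. RefSeq (GRCm38.p6) gave 250 bases before the start site for 5 of the 8 members, the fifth being Serpine2. Entries for Plat, Plau and Thbd were not matched. The windows are chr13:95618467-95618716 (minus strand) for F2r, chr7:24462233-24462482 (plus) for Plaur, chr3:121723287-121723536 (plus) for F3 and chr12:104406458-104406707 (plus) for Serpina3n. Capitals mark matches to TGANTCA, the letters bound by AP-1 (Fos and Jun factors).
F2r: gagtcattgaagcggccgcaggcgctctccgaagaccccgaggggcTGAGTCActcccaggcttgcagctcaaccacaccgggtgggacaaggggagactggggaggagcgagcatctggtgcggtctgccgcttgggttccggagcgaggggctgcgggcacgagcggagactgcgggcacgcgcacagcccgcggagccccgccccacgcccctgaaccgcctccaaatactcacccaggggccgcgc
Plaur: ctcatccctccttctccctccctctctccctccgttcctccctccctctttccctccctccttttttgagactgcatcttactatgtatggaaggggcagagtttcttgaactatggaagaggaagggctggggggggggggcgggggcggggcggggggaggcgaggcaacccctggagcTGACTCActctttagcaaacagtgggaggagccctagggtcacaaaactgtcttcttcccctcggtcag
F3: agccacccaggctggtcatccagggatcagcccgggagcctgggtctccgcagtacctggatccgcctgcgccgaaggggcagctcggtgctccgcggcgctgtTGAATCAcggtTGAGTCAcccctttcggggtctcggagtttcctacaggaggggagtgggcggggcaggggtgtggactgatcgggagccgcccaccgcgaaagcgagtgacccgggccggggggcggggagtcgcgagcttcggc
Serpina3n: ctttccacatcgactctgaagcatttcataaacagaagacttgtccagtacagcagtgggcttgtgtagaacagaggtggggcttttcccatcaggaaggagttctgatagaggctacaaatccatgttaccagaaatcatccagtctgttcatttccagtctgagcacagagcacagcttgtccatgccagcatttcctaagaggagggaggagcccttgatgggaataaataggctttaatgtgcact

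TGANTCA reads the same on both strands and occurred in 3 of the 5 windows. Counted back from the start site, its first base was at -204 in F2r, at -69 in Plaur and at -146 and -135 in F3. Of all 32851 promoters searched over the same length, 6.75% held it. The Sp1 letters GGGCGG, searched on both strands, were in Serpine2, F3, Plaur and F2r and in 32.7% of all promoters, and none of these matches overlapped a TGANTCA. The STAT letters TTCNNNGAA (7.02% of promoters), the TEAD letters GGAATG (12.6%) and TATAAA (12.4%) were in none of the 5 windows. Serpina3n held none of the motifs searched. These matches describe the letters of the windows, and binding was not measured.

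Per kilobase of exon, Thbd was the most abundant member and Plaur the least. Mean levels over all 14 libraries were 19.6 ± 2.58 CPM per kilobase for Thbd, 9.95 ± 5.40 for Serpina3n, 9.33 ± 2.78 for F2r and 4.04 ± 0.799 for F3 (SD). Plat followed with 3.32 ± 0.624 CPM per kilobase, then Serpine2 with 2.45 ± 0.383, Plau with 1.81 ± 0.465 and Plaur with 1.35 ± 0.434. In this order Serpina3n and F2r, F3 and Plat, and Plau and Plaur were neighbours that differed by less than the SD of the more variable gene. The order of Serpina3n and F2r depended on the group, since F2r was above Serpina3n in WT-Sham (7.21 against 5.48 CPM per kilobase) and WT-TAC hearts (9.21 against 4.40), and below it in HCN4F-Sham (7.69 against 11.5) and HCN4F-TAC hearts (13.2 against 15.7). Plat was likewise below F3 in WT-Sham (2.97 against 4.65) and above it in HCN4F-TAC hearts (4.05 against 3.74). Lengths are merged exons of the GENCODE M21 annotation, which need not be the one used for counting.

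**Figure D5:**
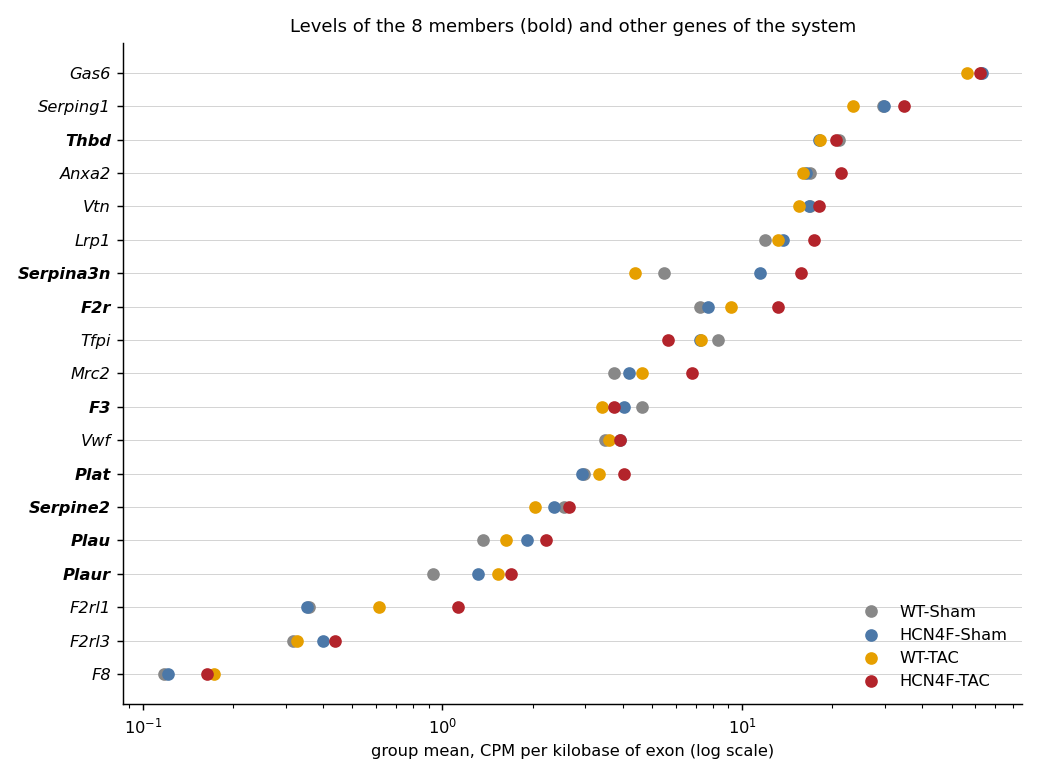
Group means in CPM per kilobase of exon are plotted on a log axis for the 8 members (bold) and 11 other genes of the plasminogen and coagulation systems, with 1 colour per group. F2r moves from 7.21 in WT-Sham to 13.2 CPM per kilobase in HCN4F-TAC hearts, while Thbd stays between 18.0 and 21.0.

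Among the other genes of the plasminogen system, Mrc2, a collagen receptor that associates with the urokinase receptor, rose with TAC in HCN4F hearts from 28.0 ± 2.23 to 45.6 ± 7.90 CPM (SD, n = 4 each; 0.70, SE 0.10, adjusted p = 0.00039) and had 0.30 (adjusted p = 0.168) in WT hearts. Of 12 such genes counted, 7 had enough reads, and Mrc2 was the only one that passed: 0 for TAC in WT, 1 for TAC in HCN4F and 0 in either genotype comparison. Of all tested genes 13.6% passed for TAC in HCN4F hearts. Mrc2 also passed both averaged comparisons, with 0.36 for genotype (adjusted p = 0.0442) and 0.50 for TAC (adjusted p = 0.000506).

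By CPM, which is not corrected for length, the most abundant beside it were Lrp1, the receptor that clears complexes of activator and inhibitor, Anxa2, a surface site for plasminogen and Plat, and Vtn (vitronectin), a matrix and plasma protein that the urokinase receptor binds. Lrp1 had group means of 210.2 CPM in WT-Sham, 241.9 in HCN4F-Sham, 233.5 in WT-TAC and 308.3 in HCN4F-TAC hearts, and its TAC change in HCN4F hearts was 0.35 (adjusted p = 0.0557). Per kilobase S100a10 was at 20.5 CPM over all libraries against 17.9 for Anxa2, 17.0 for Vtn and 14.1 for Lrp1, although in HCN4F-TAC hearts Anxa2 had 21.4 and S100a10 21.1. Plasminogen itself (Plg) was near 0, at 0.00771 CPM per kilobase or less in each group, as were Serpinb2, Serpinf2, Cpb2 and A2m, and none of these was tested.

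Of 28 other coagulation and thrombin receptor genes, 14 had enough reads for a test and 1 passed in 1 of the 4 comparisons. That comparison was TAC in HCN4F hearts, where 13.6% of all tested genes passed. The gene was F2rl1, protease-activated receptor 2, which tissue factor with factor VII can activate. F2rl1 had 0.64 to 1.30 CPM in HCN4F-Sham and 4.35, 3.72, 1.59 and 2.68 CPM in HCN4F-TAC hearts, a called rise of 1.66 (SE 0.28, adjusted p = 0.00127), and 0.76 (SE 0.35, adjusted p = 0.214) in WT hearts. The F2rl1 interaction was 0.90 (95% interval -0.07 to 1.86, adjusted p = 0.569). F8, coagulation factor VIII, passed for TAC averaged over genotype only (0.49, SE 0.14, adjusted p = 0.0171). By CPM, the most abundant of the others were Gas6, Serping1 (C1 inhibitor), Vwf (von Willebrand factor) and Tfpi, the inhibitor of tissue factor, with group means of 143.9 to 160.5, 54.7 to 80.6, 55.9 to 63.0 and 30.9 to 45.4 CPM. Per kilobase Gas6, Serping1, Tfpi and Vkorc1 had 61.8, 30.2, 7.11 and 6.72 CPM over all libraries, and Vwf, a long transcript, had 3.74. Vkorc1 was above Tfpi in HCN4F-Sham (7.54 against 7.25) and HCN4F-TAC hearts (7.01 against 5.65) and below it in both WT groups. Prothrombin (F2), F9, F11, F12, the fibrinogen genes and Proc, products of the liver in the main, had group means at or near 0.

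For each member, the 3 genes whose log2 CPM followed it most closely over the 14 libraries were taken from 12547 candidates. The libraries share group structure and depth, so the Pearson r values are descriptions only. F2r was closest to Fbln2 (r = 0.973), Enpp1 (0.966) and Fstl3 (0.963), and Plat to Sparc (0.95), Lhfpl2 (0.942) and Ace (0.94). Plaur was closest to Spry2 (0.944), Cdc42ep2 (0.932) and Hoxa5 (0.878), and Plau to Dact1 (0.911), Casp12 (0.899) and Unc5b (0.896). Casp12 was also the closest gene to Serpina3n (0.921), before Cd302 (0.92) and Ass1 (0.882). Serpine2 (Mndal 0.858, Slc25a45 0.857, Trmt2a 0.842), Thbd (Prdm1 0.85, Cxcr4 0.849, Aplnr 0.838) and F3 (Sertad2 0.838, Osbpl2 0.834, Rhobtb2 0.822) had lower closest values.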

How the data were processed

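Libraries were made by polyA selection from left ventricular RNA and sequenced on an Illumina platform. The authors deposited raw counts, whole numbers of reads per gene, with no normalization. The submitters' processing notes name the build GRCm38. The aligner, counting program, annotation release and use of strand are not given in the sources used here. Groups and replicate numbers were taken from the sample labels, and 14 libraries were used. The numbers in the library titles are lower for every HCN4F library than for every WT library. What these numbers stand for is not given in the sources used here, and their order cannot be told apart from genotype. Another 2 columns of per-sample values matched no label and were left out. Rows without a gene name (174) held 0.00715% of the counts. They cannot change a member's value beyond that share of the library sizes.

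Genes were kept with filterByExpr by group, which left 15292 of 49315. Counts were scaled by TMM in edgeR 4.0.16 (R 4.3.3). A single model held a mean for each of the 4 groups, so that WT-TAC with its 2 libraries shares the spread of the others, and contrasts were tested with glmQLFTest (robust) and p-values adjusted by Benjamini-Hochberg over the 15292 genes. A gene passed at an adjusted p under 0.05 and was called where its log2 fold change was also beyond 1 in either direction, the study's threshold. CPM values are TMM-scaled without a pseudocount, log2 CPM used a prior count of 2, and each SE belongs to a log2 fold change. The code was tested on simulated counts.

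Alternatives were DESeq2 1.42.0 and its size factors, the count table unfiltered or kept from a mean of 1 CPM upwards, fits of the compared groups, the replicate number as a block, and each library left out. Comparisons averaged over surgery or genotype were added after the data had been seen. The 8 members, the gene lists and the marker lists were chosen with earlier results of these data known. Named genes are all members, listed genes that were called, up to 4 abundant genes per list and the 3 closest genes to each member. Mrc2, F8, Pf4, Dkk3, Actc1, S100a10, Vkorc1 and the fibroblast markers were named after their values were seen. Of the listed plasminogen system genes 1 is not reported here and is left out of the counts. Replicates are separate animals by the study's description. Replicates of 1 group differed by 6.22 to 61.8 in mean chi-square per gene, so that no 2 libraries were alike. Gene positions and exon lengths come from GENCODE M21 (GRCm38) and promoter sequences from RefSeq (GRCm38.p6).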

Additional observations from a re-analysis of the deposited data

Results flagged for a closer look

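Of 24 groups of 4 libraries tested over the 8 genes and 3 groups, 2 held a library whose gap to its nearest neighbour exceeded Dixon's 95% limit as a share of the group's range, where chance gives about 1 in 20 groups. Plau measured 2.72 CPM in WT-Sham replicate 2, below the other three WT-Sham hearts at 3.36 to 3.48 CPM. F2r measured 18.9 CPM in HCN4F-Sham replicate 1, below the other three HCN4F-Sham hearts at 27.2 to 28.7 CPM. That library was also the lowest of its group for 7 of the 8 genes.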

How the results depend on the processing

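The rise of F2r with TAC in HCN4F hearts passed in all 21 alternatives (adjusted p 3.99e-08 to 0.00531), and that of Plat in 20 of 21. The number of the 8 genes passing for TAC in WT hearts, 0 as reported, was 1 without the filter (871 of all genes passing), 1 with the replicate number as a block (225), 3 in edgeR (2009) and 3 in DESeq2 (1901) on the compared groups, and 0 to 1 with 1 library left out (1, F2r, without HCN4F-Sham replicate 1, with 904), against 694 genes as reported. For TAC in HCN4F hearts it was 2, 1 in edgeR on the compared groups (1286 genes against 2082), and 2 to 3 with 1 library left out (3, with Serpina3n, without HCN4F-Sham replicate 3, with 2109 genes). Serpina3n was called in the Sham genotype comparison by DESeq2 (1 of 8 genes with all groups, 1 with the compared groups; 1.06 in both) and without HCN4F-Sham replicate 1, the libraries left out giving 0 to 1. In the TAC genotype comparison DESeq2 called 1 gene in either fit, passed 1 with all groups and 2 (with F2r) with those compared, and gave Serpina3n 1.82 in both, while left-out libraries gave 0 to 1 called and 0 to 2 passing. The averaged genotype comparison passed 1 gene, 3 without the filter and 0 to 3 with 1 library left out (0 without WT-TAC replicate 2, 2 without HCN4F-TAC replicate 3, 3 without HCN4F-Sham replicate 1). The averaged TAC comparison passed 3, or 1 to 4 (1 without WT-TAC replicate 3). Over all genes the averaged genotype comparison passed 192, 429 without the filter, 706 without HCN4F-Sham replicate 1, 637 without HCN4F-TAC replicate 3 and 17 without WT-TAC replicate 2, and the averaged TAC comparison 3278, or 1484 without WT-TAC replicate 3. Both averages were chosen after seeing the data. With libraries left out, the signs of small changes turned: Plau with TAC in WT ranged from -0.13 to 0.56, F3 with TAC in HCN4F from -0.29 to 0.030, Plat between Sham genotypes from -0.11 to 0.029, Plaur between TAC genotypes from -0.047 to 0.26, F3 between TAC genotypes from -0.047 to 0.22, and the interaction of Plau from -0.34 to 0.35. The cause was not tested.

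Same-numbered libraries of compared groups had correlations of their deviations from the group means between -0.12 and 0.159. With 2 to 4 libraries per group these values cannot exclude a batch shared by number. As a block the labels' replicate numbers turned the Plau interaction to 0.0056 and moved Plaur out of the averaged TAC comparison (0.53, adjusted p = 0.0709). They also moved F3 with TAC in WT past the threshold (-0.62, adjusted p = 0.0468). Over all genes, DESeq2 on all groups called 84 genes between TAC genotypes and 67 between Sham genotypes, against 11 and 32 in edgeR, and edgeR on the compared groups called 192 for TAC in WT against 108. The interaction passed 0 genes, 17 without the filter and 78 without HCN4F-TAC replicate 3. WT-TAC with 2 libraries limits every comparison that uses it, and a library left out there leaves 1, which is assumed to vary like the other groups.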
